A study of Rattus norvegicus with 54 samples.

Results

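Genes for 8 secreted neurotrophic factors, of 40319 genes listed for each library, were followed in rat hearts with and without a myocardial infarction (MI), and with an MI treated with a sheet of human cells. They were Ndnf (neuron-derived neurotrophic factor), Metrn (meteorin), Metrnl (meteorin-like), Bdnf (brain-derived neurotrophic factor), Ntf3 (neurotrophin-3), Gdnf (glial cell line-derived neurotrophic factor), Manf (mesencephalic astrocyte-derived neurotrophic factor) and Cdnf (cerebral dopamine neurotrophic factor). Each was found once, by its symbol, in all 54 count files. The set was chosen by its measured levels in cell sheet-treated against untreated infarcted hearts, in which Ndnf was higher and Metrn lower. Those differences are therefore described below without a test.

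The hearts came from female athymic rats (F344/NJcl-rnu/rnu, 8 weeks old at the start), which lack mature T cells and so tolerate human cells. Sham hearts had the operation with no infarct. In MI hearts the left anterior descending coronary artery was tied permanently, and in MI+Cell Sheet hearts a bi-level sheet of human smooth muscle cells and endothelial progenitor cells was laid over the ischemic epicardium after the same ligation. The smooth muscle cells had been transdifferentiated from bone marrow mesenchymal stem cells, and the endothelial progenitor cells came from donors' blood. All groups, shams included, were of the same athymic strain, and hearts were taken 1 week after surgery. The left ventricle below the stitch was divided into the infarct zone (anterior wall), the border zone (lateral wall) and the remote zone (septum), and poly(A) RNA of each was sequenced. This gave 6 libraries in each of 9 groups, from 18 animals. In GEO's labels each library is a technical replicate, whereas the study's methods describe 6 hearts per group and its results 5 to 6 animals per group. They were treated as 1 library per animal and zone, and if they were not separate animals the p-values measure only technical spread.

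Neurotrophins such as Bdnf and Ntf3 signal through the Trk receptors and the p75 receptor, and they keep sensory and sympathetic neurons alive, including those that supply the heart. Gdnf acts through the Ret kinase together with a Gfra co-receptor. Manf and Cdnf are a related pair of proteins that reside in the endoplasmic reticulum (ER) and are released under ER stress, when they protect the secretory pathway. Meteorin directs glial differentiation and axon outgrowth, its paralog meteorin-like is released by muscle, fat and immune cells, and Ndnf is a secreted protein with fibronectin type III domains that supports the survival of neurons and of endothelial cells. In a bulk library of heart tissue, fewer cells of a type and less RNA per cell cannot be told apart.

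Each library held 12699204 to 23397754 counts on genes. Levels are given as CPM (counts-per-million of library size), scaled with TMM factors over all 54 libraries, and they were not compared between genes because transcript lengths were not used. The hearts of 1 sham animal, replicate 5, stood apart from the other shams in all zones. Its summed level of 5 cardiomyocyte markers was the lowest of the shams (10347 CPM in the infarct zone, 8650 CPM in the border zone and 17094 CPM in the remote zone, with sham medians of 31759, 29283 and 36575 CPM), and its summed level of 5 macrophage markers was the highest (599, 587 and 544 CPM, against medians of 171, 176 and 130 CPM). In the same way the remote zone of MI+Cell Sheet replicate 1 had the lowest cardiomyocyte sum of its group (11556 CPM, group median 31133 CPM). So did the border zone of that animal (378 CPM, group median 10471 CPM). The infarct zone of MI+Cell Sheet replicate 6 had the highest cardiomyocyte sum of its group (16995 CPM, group median 1157 CPM). Values or counts without these libraries are given for the results that they changed most.

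Promoter sequences are shown for Metrn and Metrnl, because these paralogs had unlike patterns, and for Cdnf, which had the largest fitted fall after MI. They are the 250 bases before the annotated start site in RefSeq (build GRCr8, a later build than the one used for the counts), read 5′ to 3′ on the strand of the gene. Capitals mark matches on either strand to the GC box (GGGCGG) or the CCAAT box (CCAAT).
Metrn, chr10:15323219-15323468, minus strand: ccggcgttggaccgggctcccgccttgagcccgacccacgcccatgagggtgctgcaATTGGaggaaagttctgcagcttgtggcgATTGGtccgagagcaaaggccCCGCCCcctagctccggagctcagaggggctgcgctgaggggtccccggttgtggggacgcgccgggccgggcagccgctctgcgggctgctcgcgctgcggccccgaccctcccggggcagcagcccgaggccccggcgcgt
Metrnl, chr10:107461898-107462147, plus strand: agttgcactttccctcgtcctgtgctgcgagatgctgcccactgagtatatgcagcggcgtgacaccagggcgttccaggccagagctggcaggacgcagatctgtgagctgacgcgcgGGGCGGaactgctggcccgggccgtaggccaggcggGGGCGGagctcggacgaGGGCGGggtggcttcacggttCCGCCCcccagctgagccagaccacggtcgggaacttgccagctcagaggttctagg
Cdnf, chr17:79637801-79638050, minus strand: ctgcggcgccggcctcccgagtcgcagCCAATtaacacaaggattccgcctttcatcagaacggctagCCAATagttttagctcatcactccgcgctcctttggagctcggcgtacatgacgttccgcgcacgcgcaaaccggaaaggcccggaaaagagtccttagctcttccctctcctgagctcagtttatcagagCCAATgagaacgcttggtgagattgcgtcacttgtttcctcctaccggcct

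The Metrn window held 2 CCAAT boxes, which began 193 and 164 bases before the start site (-193 and -164), and 1 GC box at -143. The Metrnl window held 4 GC boxes, at -131, -95, -78 and -57, and no CCAAT box. The Cdnf window held 3 CCAAT boxes, at -223, -182 and -51, and no GC box. Their GC content was 74.0%, 67.6% and 56.0%, against a median of 51.2% over the 33469 RefSeq promoter windows of that length. A CCAAT box was present in 34.0% of all windows and a GC box in 30.5%, so neither motif is uncommon. A TATA box (TATAAA, 12.9% of windows), an E-box (CACGTG, 5.59%), a cyclic AMP response element (TGACGTCA, 1.59%) and the ER stress response element (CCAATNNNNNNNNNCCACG, whose first part is also a CCAAT box, 0.0657%) were searched on both strands and had no match in these windows. Of the 8 genes, 6 had a RefSeq window, and Ndnf and Manf did not.

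Comparing MI with sham hearts asked how the infarct itself changed each gene. By edgeR's quasi-likelihood test (adjusted p under 0.05 over all genes tested), Metrnl rose and Bdnf and Cdnf fell in the infarct and border zones, so that 3 of the 7 neurotrophic factor genes that could be fitted were called in each, where 49.9% and 41.7% of all genes were called. In the remote zone Bdnf and Cdnf fell, 2 of 7, where 25.8% of all genes were called. Gdnf had too few counts for this fit. Without sham replicate 5, 6, 5 and 5 of the 7 genes were called in the infarct, border and remote zones. Leaving out any other library gave 3, 3 and 2 to 3. The share of all genes called without sham replicate 5 is not given here. Without it, the genes that rose and fell in a list of 26 ER stress genes went from 13 and 3 to 18 and 3 (infarct zone). They went from 7 and 2 to 17 and 3 (border zone) and from 2 and 4 to 13 and 5 (remote zone).

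Comparing MI+Cell Sheet with MI hearts asked what the cell sheet changed after an infarct. Over all genes 0%, 18% and 17.1% were called in the infarct, border and remote zones, and 12.1% where the counts of the infarct and border zones were summed per animal. In the infarct zone this was 0 of 16196 genes by edgeR, with 1341 genes at an unadjusted p under 0.05 and 59 genes called by DESeq2. The differences for Ndnf and Metrn, which led to the choice of the set, were present in the infarct and border zones and small in the remote zone, where Cdnf had the largest difference of the genes fitted (1.23 ± 0.32). Those of the other 6 genes are given with each gene, also without a test.

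**Figure D1:**
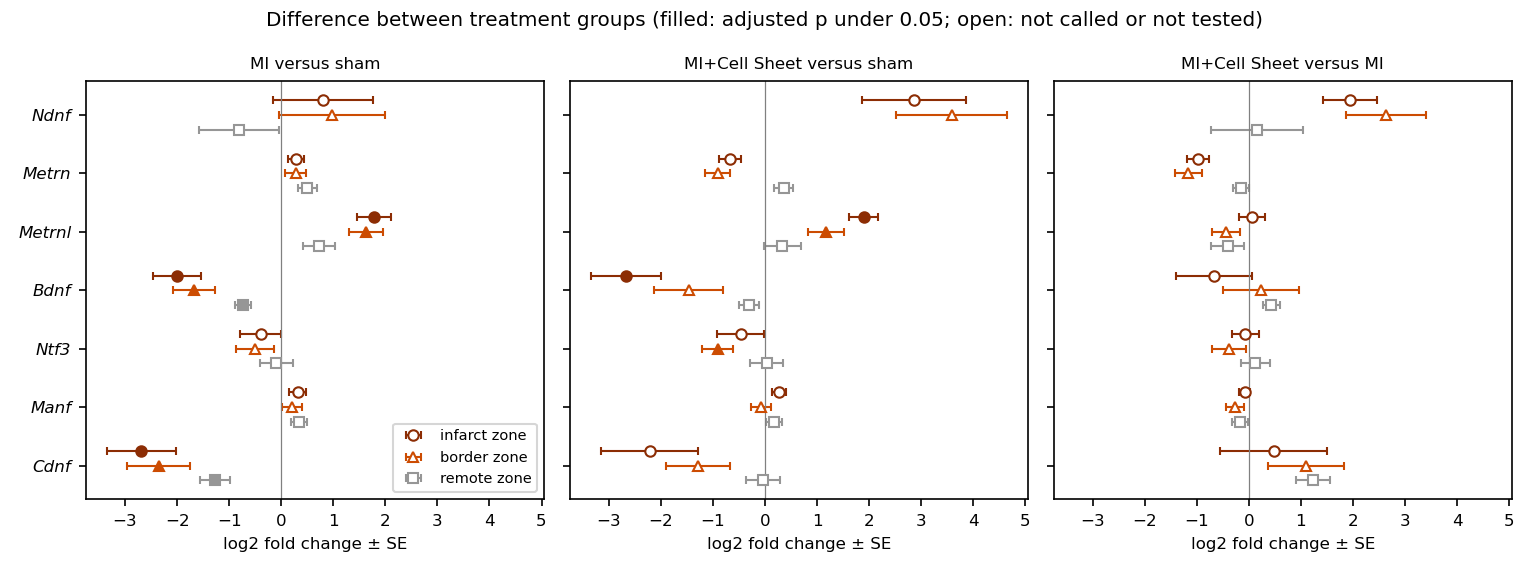
Fitted log2 fold changes with standard errors (horizontal axis) of the neurotrophic factor genes in each zone for MI against sham, MI+Cell Sheet against sham and MI+Cell Sheet against MI. Metrnl lay to the right and Bdnf and Cdnf to the left of 0 for MI against sham, while Ndnf (1.95 and 2.63) and Metrn (-0.97 and -1.16) lay apart from 0 on opposite sides for MI+Cell Sheet against MI in the infarct and border zones.

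Ndnf was at low levels in most sham libraries. Its lowest, median and highest infarct-zone levels were 0.0752, 0.216 and 8.12 CPM in sham, 1.20, 2.38 and 5.87 CPM in MI, and 3.10, 8.99 and 27.0 CPM in MI+Cell Sheet hearts. Border levels were 0.062, 0.511 and 8.72 CPM in sham, 0.24, 4.19 and 6.48 CPM in MI, and 1.26, 22.9 and 39.8 CPM in MI+Cell Sheet hearts. Remote levels were 0.204, 0.757 and 7.48 CPM in sham, 0.383, 0.992 and 1.79 CPM in MI, and 0, 0.27 and 5.16 CPM in MI+Cell Sheet hearts. The highest sham value in every zone was that of sham replicate 5, and the median climbed from sham to MI to MI+Cell Sheet in the infarct and border zones only.

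The MI+Cell Sheet libraries overlapped the MI libraries in each single zone for Ndnf. The fitted difference was 1.95 ± 0.52 (log2, SE) for the infarct zone, 2.63 ± 0.76 for the border zone and 0.16 ± 0.88 for the remote zone. With the infarct and border counts summed per animal it was 2.39 ± 0.45, and the 6 MI+Cell Sheet values then all lay above the 6 MI values. Such a separation toward higher levels was seen for 3.61% of all genes. Leaving out each animal in turn gave 1.45 to 2.29 in the infarct zone and 2.39 to 2.88 in the border zone. The remote value was set by MI+Cell Sheet replicate 4, the highest there at 5.16 CPM, and was -1.48 without it. Against sham hearts the differences of MI+Cell Sheet hearts were 2.86 ± 1.00 (infarct zone) and 3.58 ± 1.07 (border zone), or 5.43 and 5.77 without sham replicate 5.

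The contrast of MI with sham, which shares its MI libraries with the contrast that chose Ndnf, did not pass the test with all shams. The log2 fold changes were 0.80 ± 0.96 (adjusted p = 0.503) in the infarct zone and 0.97 (adjusted p = 0.460) in the border zone. Without sham replicate 5 Ndnf rose by 3.48 ± 0.58 (adjusted p = 0.00033) and 3.16 ± 0.81 (adjusted p = 0.00515). The remote value was -0.82 (adjusted p = 0.456) with it and 0.72 (adjusted p = 0.235) without. This 1 animal decided the call in the infarct and border zones and the sign in the remote zone. Sham replicate 5 was also the highest sham for Ndnf in every zone. The p-values without it follow the removal of an extreme value of Ndnf and give no independent support for a rise. The sham mean was 1.57 ± 3.22 CPM (SD, n = 6) in the infarct zone and 0.256 CPM over the other 5 shams.

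Within MI hearts, Ndnf was higher in the infarct than in the remote zone in 6 of 6 animals, by 1.38 ± 0.33 (adjusted p = 0.0161), a call that was lost without MI replicate 4. The MI effect itself was larger in the infarct than in the remote zone by 2.16 ± 0.59 (adjusted p = 0.0153), and by 2.61 without sham replicate 5 (adjusted p = 0.0161). Both tests share MI libraries with the contrast that chose Ndnf, so neither is independent of that choice. In MI+Cell Sheet hearts, described only, the infarct and border zones exceeded the remote zone by 4.32 ± 0.94 and 5.00 ± 0.85, each in 6 of 6 animals. Ordered by mean, the 9 groups ran from the MI+Cell Sheet border zone (22.2 ± 15.2 CPM) and infarct zone (11.0 ± 8.47 CPM) through the MI border (3.61 ± 2.47 CPM) and infarct zone (2.84 ± 1.76 CPM) to the remaining 5 groups, with means between 1.02 and 1.79 CPM. No neighbours in this order differed by more than the larger of their SDs.

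**Figure D2:**
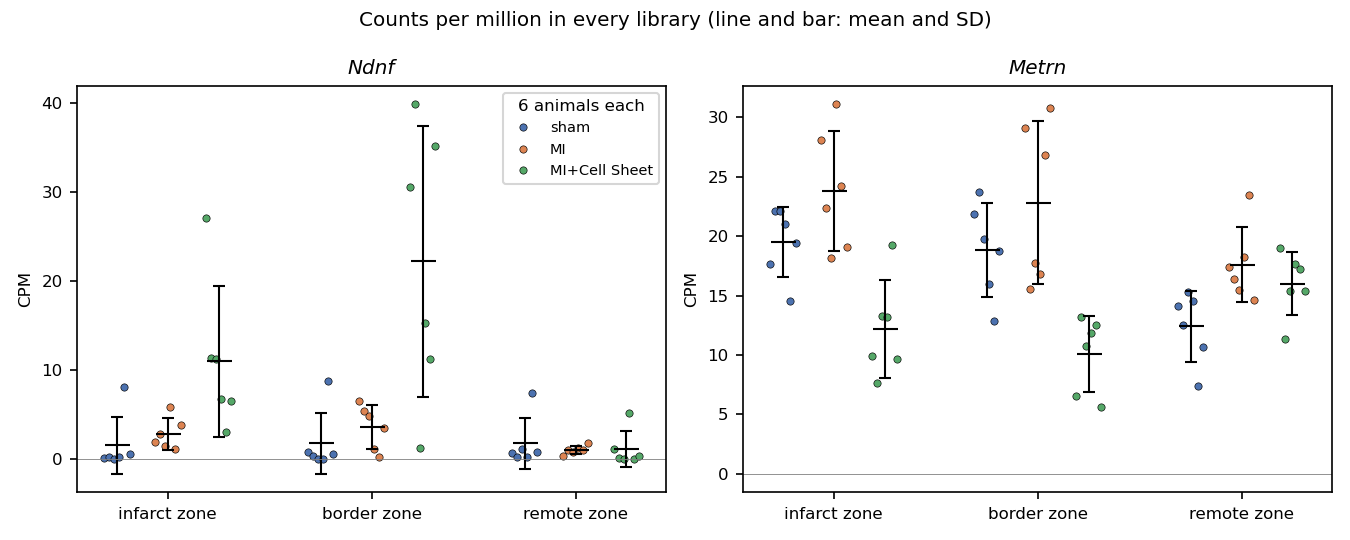
Levels of Ndnf and Metrn in CPM (vertical axis) in each of the 54 libraries, by zone and treatment group, with group means and SDs. Ndnf reached 39.8 CPM in the border zone of MI+Cell Sheet hearts against at most 6.48 CPM in MI hearts, while every MI+Cell Sheet border library was below every MI border library for Metrn.

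The largest Ndnf values and the adipocyte markers were found in many of the same border libraries. In MI+Cell Sheet replicates 1 to 6 the border level of Ndnf was 30.6, 39.8, 1.26, 15.2, 11.2 and 35.2 CPM, and the summed level of the 5 adipocyte markers was 352, 107, 0.243, 4.98, 299 and 530 CPM. The sum in the border zone of MI hearts was 0 to 27.1 CPM and in shams 0.072 to 0.555 CPM. Replicate 3 was the lowest of its group for both. In the infarct zone of MI+Cell Sheet hearts the adipocyte sum was at most 40.5 CPM. Of the adipocyte markers 2 of the 3 that could be fitted in the border zone rose in MI+Cell Sheet against MI hearts, and 4 of 5 with the zones summed. The summed level of 4 mesothelial markers, genes of the epicardial surface layer, was 492, 343, 41.2, 184, 200.4 and 417 CPM in the border zone of the same 6 animals. In their infarct zone it was 447, 216, 223, 89.0, 65.7 and 74.5 CPM, beside Ndnf levels whose highest (27.0 CPM) and lowest (3.10 CPM) were in the same libraries as the highest and lowest mesothelial sum. MI hearts had mesothelial sums of 62.1 to 394 CPM in the border and 144 to 232 CPM in the infarct zone, and 0 of the 4 markers passed the test by edgeR between MI+Cell Sheet and MI hearts in either zone. The macrophage sum in the MI+Cell Sheet border libraries (1742, 988, 322, 482, 833 and 1179 CPM) had the same order as the mesothelial sum. The sum of 4 Schwann cell markers was highest in replicate 2 (111 CPM). Sham replicate 5, the highest sham for Ndnf, had adipocyte sums of 0.114, 0.143 and 0.799 CPM in the infarct, border and remote zones. Its mesothelial sums were 43.1, 22.7 and 27.9 CPM (sham medians 67.8, 56.9 and 43.2 CPM). The part of adipose tissue, of the epicardial layer or of other cell types in the Ndnf difference was not tested.

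**Figure D3:**
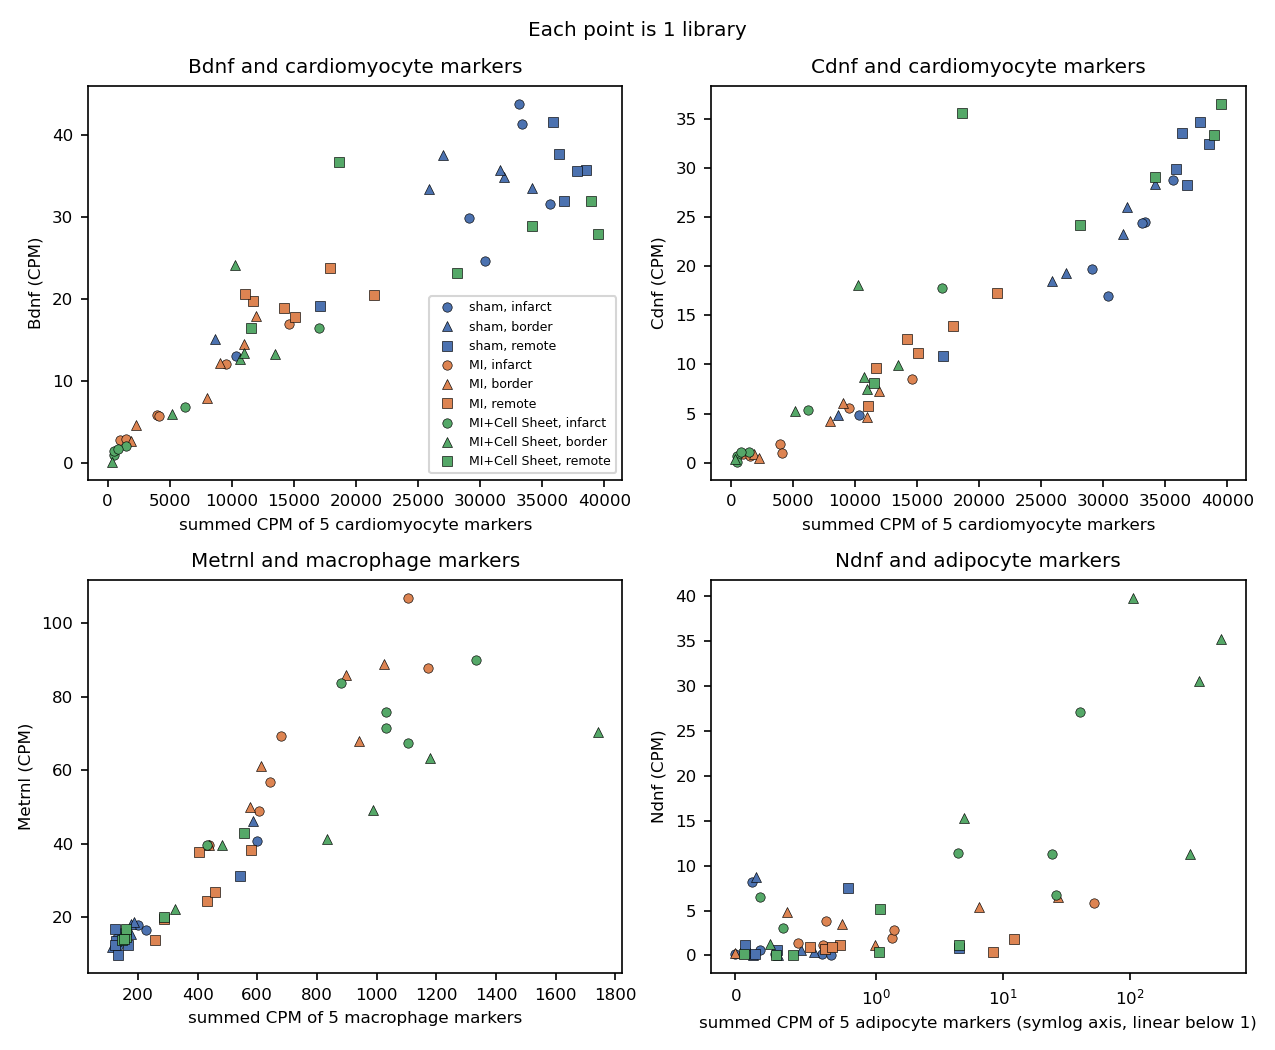
Levels (CPM, vertical axes) of Bdnf and Cdnf against summed cardiomyocyte markers, of Metrnl against summed macrophage markers and of Ndnf against summed adipocyte markers (CPM, horizontal axes, the last logarithmic above 1), with 1 point per library, color for treatment and shape for zone. The MI+Cell Sheet border libraries spanned 0.243 to 530 CPM of adipocyte markers, and the 3 with the most Ndnf (39.8, 35.2 and 30.6 CPM) had 107, 530 and 352 CPM.

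Metrn had its lowest levels in the infarct and border zones of MI+Cell Sheet hearts. Infarct-zone levels (lowest, median, highest) were 14.6, 20.2 and 22.1 CPM in sham, 18.2, 23.3 and 31.1 CPM in MI, and 7.64, 11.6 and 19.3 CPM in MI+Cell Sheet hearts. Border levels were 12.9, 19.2 and 23.7 CPM in sham, 15.5, 22.3 and 30.8 CPM in MI, and 5.61, 11.3 and 13.2 CPM in MI+Cell Sheet hearts. Remote levels were 7.36, 13.3 and 15.3 CPM in sham, 14.6, 16.9 and 23.5 CPM in MI, and 11.4, 16.3 and 19.0 CPM in MI+Cell Sheet hearts. MI and MI+Cell Sheet libraries overlapped in the infarct and remote zones but not in the border zone, where 5.69% of all genes were separated in this direction.

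The fitted difference of MI+Cell Sheet from MI hearts for Metrn was -0.97 ± 0.22 for the infarct zone, -1.16 ± 0.26 for the border zone and -0.15 ± 0.15 for the remote zone. It was -1.08 ± 0.18 with the zones summed, where the groups again did not overlap, as for 3.73% of all genes toward lower levels. Against sham hearts it was -0.67 ± 0.21, -0.91 ± 0.24 and 0.36 ± 0.18. The MI+Cell Sheet hearts were thus below both other groups in the infarct and border zones and not in the remote zone. After MI alone Metrn was not called, with log2 fold changes of 0.29 ± 0.15 (adjusted p = 0.126), 0.27 (adjusted p = 0.302) and 0.50 ± 0.18 (adjusted p = 0.0519) in the infarct, border and remote zones. The remote value passed without sham replicate 5 (0.39, adjusted p = 0.0311). As for Ndnf, this contrast shares its MI libraries with the one that chose Metrn, so its tests are not independent of that choice.

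Metrn had a zone pattern even in sham hearts. It was higher in the infarct-matched anterior wall than in the septum in 6 of 6 sham animals, by 0.68 ± 0.10 (adjusted p = 0.000142), and higher in the lateral wall by 0.61 (adjusted p = 0.0023). In MI hearts the infarct zone still exceeded the remote zone in 6 of 6 animals, by 0.44 ± 0.12 (adjusted p = 0.0223). It did not pass the threshold without MI replicate 4 or MI replicate 6. These MI libraries also entered the contrast that chose Metrn, so this test is not independent of that choice. In MI+Cell Sheet hearts, described only, the order was turned: the infarct zone was higher than the remote zone in 1 of 6 animals (-0.43 ± 0.16), as was the border zone (-0.68 ± 0.25). By mean the order was MI infarct (23.8 ± 5.04 CPM), MI border (22.8 ± 6.85), sham infarct (19.5 ± 2.95), sham border (18.8 ± 3.93), MI remote (17.6 ± 3.16), MI+Cell Sheet remote (16.0 ± 2.66), sham remote (12.4 ± 2.98), MI+Cell Sheet infarct (12.2 ± 4.12) and MI+Cell Sheet border (10.1 ± 3.22). Only the MI+Cell Sheet remote and sham remote means differed by more than the larger SD of the neighbours.

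Metrnl, the paralog, rose with the infarct. The lowest, median and highest levels in the infarct zone were 12.4, 16.2 and 40.7 CPM in sham, 39.7, 63.0 and 107 CPM in MI, and 39.6, 73.7 and 89.9 CPM in MI+Cell Sheet hearts. Those of the border zone were 12.1, 17.3 and 46.2 CPM, 39.6, 64.4 and 88.9 CPM, and 22.3, 45.2 and 70.4 CPM. Those of the remote zone were 9.67, 13.1 and 31.3 CPM, 14.0, 25.8 and 38.2 CPM, and 13.9, 15.7 and 42.8 CPM. Sham replicate 5 was the only sham library to reach the MI range in the infarct and border zones.

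After MI Metrnl rose by 1.79 ± 0.33 (adjusted p = 0.00149) in the infarct zone and 1.63 ± 0.32 (adjusted p = 0.00349) in the border zone. The remote value of 0.73 did not pass (adjusted p = 0.0938), although it did without sham replicate 5 (1.05, adjusted p = 0.00196) and without MI replicate 2. The MI effect was larger in the infarct than in the remote zone by 1.06 ± 0.29 (adjusted p = 0.0163). Macrophage markers moved with these groups, since 4 of the 5 rose after MI in the infarct zone and their sum was 438 to 1172 CPM in MI against 129 to 599 CPM in sham hearts. The part of macrophages in the rise was not tested. MI+Cell Sheet hearts differed from MI hearts by 0.06 in infarct, -0.44 in border and -0.40 in remote tissue (-0.77 without MI+Cell Sheet replicate 1), and from sham hearts by 1.90 ± 0.28 (adjusted p = 0.000261), 1.17 ± 0.34 (adjusted p = 0.0162) and 0.33 (adjusted p = 0.816), the last turning to -0.052 without MI+Cell Sheet replicate 1.

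Bdnf fell in all zones after MI. Infarct-zone levels (lowest, median, highest) were 13.0, 30.7 and 43.7 CPM in sham, 2.72, 5.77 and 17.0 CPM in MI, and 0.949, 1.85 and 16.5 CPM in MI+Cell Sheet hearts. The border zone had 15.1, 34.1 and 37.6 CPM, 2.69, 10.03 and 17.9 CPM, and 0.114, 13.0 and 24.1 CPM. The remote zone had 19.1, 35.6 and 41.6 CPM, 17.8, 20.1 and 23.8 CPM, and 16.5, 28.4 and 36.7 CPM. In the infarct and border zones sham and MI libraries overlapped only through sham replicate 5, the lowest sham in both.

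The fall was -1.996 ± 0.46 (adjusted p = 0.00462) in the infarct zone, -1.68 ± 0.41 (adjusted p = 0.00817) in the border zone and -0.73 ± 0.15 (adjusted p = 0.00513) in the remote zone. It was larger in the infarct than in the remote zone, with a difference of -1.46 ± 0.35 (adjusted p = 0.00897). The cardiomyocyte markers fell in the same libraries, 5 of 5 in the infarct and border zones and 4 of 5 in the remote zone, and in the infarct zone their sum was 10347 to 35656 CPM in sham and 997 to 14629 CPM in MI hearts. The part of cardiomyocyte loss in the fall of Bdnf was not tested. MI+Cell Sheet hearts differed from MI hearts by -0.67 in infarct, 0.24 in border and 0.43 in remote tissue. Without MI+Cell Sheet replicate 6 the infarct value was -1.59, and without MI+Cell Sheet replicate 3 the border value turned to -0.11. Against sham hearts Bdnf fell in the infarct zone (-2.67 ± 0.68, adjusted p = 0.00597; -3.60 without MI+Cell Sheet replicate 6), and the border value of -1.47 did not pass (adjusted p = 0.0907) unless sham replicate 5 (adjusted p = 0.0456) or MI+Cell Sheet replicate 1 was left out.

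Ntf3, the ligand of the TrkC receptor, had medians between 3.20 and 6.60 CPM in all 9 groups. After MI its log2 fold changes were -0.39 (adjusted p = 0.422), -0.50 (adjusted p = 0.288) and -0.10 (adjusted p = 0.849) in the infarct, border and remote zones. The infarct value passed without sham replicate 5 (-0.62, adjusted p = 0.0185). Against sham hearts Ntf3 fell in the border zone of MI+Cell Sheet hearts, by 0.91 ± 0.30 on the log2 scale (adjusted p = 0.0283), where levels were 2.29 to 8.36 CPM in sham and 2.08 to 4.37 CPM in MI+Cell Sheet hearts. That call rested on the full set of libraries, and it was lost when any of sham replicates 2, 3, 4 and 6 or MI+Cell Sheet replicates 1, 5 and 6 was left out. The differences from MI hearts were -0.07, -0.38 and 0.13.

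Gdnf, which guides enteric and motor neurons, was counted with few reads. In the infarct zone the 6 sham libraries held 4 counts in all, with 4 libraries at 0, the 6 MI libraries 60 and the 6 MI+Cell Sheet libraries 94. In the border zone the sums were 2, with 5 libraries at 0, then 42 and 65, and in the remote zone 11, 5 and 17. Scaled for library size, MI exceeded sham 11.3-fold in the infarct zone (95% exact counting interval 4.21 to 43.0) and 18.5-fold in the border zone (4.82 to 158). Exact permutation tests over the libraries gave 2-sided p = 0.0173 and p = 0.0152 for these zones and p = 0.394 for the remote zone, or 0.0260, 0.0260 and 0.394 after adjustment over the 3 zones. With 924 ways to divide 12 libraries, the smallest possible p was 0.0022. MI+Cell Sheet exceeded sham 17.9-fold (6.78 to 67.2) and 25.4-fold (6.75 to 214) in the same zones, with no overlap of libraries, a separation in this direction that 11.8% and 9.44% of all genes had. The intervals cover counting error only, and with so few sham counts the size of the change is known only loosely. From MI hearts, described only, MI+Cell Sheet hearts differed by 0.64 ± 0.58 (log2) in the infarct zone and 0.53 ± 0.29 with the zones summed. In the border and remote zones Gdnf was too low for that fit.

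Manf, whose transcript is induced by ER stress, stayed within a narrow range. Its group medians lay between 73.6 and 124 CPM, and no neighbours in the order of the 9 group means differed by more than the larger SD. After MI the log2 fold changes of 0.32 (adjusted p = 0.122), 0.20 (adjusted p = 0.418) and 0.34 (adjusted p = 0.106) did not pass with all shams. Without sham replicate 5 they were 0.46 (adjusted p = 0.0058), 0.39 (adjusted p = 0.0288) and 0.45 (adjusted p = 0.00981). That animal was the highest sham in every zone, at 146, 166 and 104 CPM in the infarct, border and remote zones. In sham hearts Manf was higher in the infarct and border than in the remote zone, by 0.35 ± 0.06 (6 of 6 animals, adjusted p = 0.000459) and 0.38 (adjusted p = 0.00268). The differences of MI+Cell Sheet from MI hearts were -0.07, -0.26 and -0.17.

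Cdnf, the paralog of Manf, had the largest fitted fall of these genes after MI, within the standard errors of the fall of Bdnf in the infarct and border zones. Infarct-zone levels (lowest, median, highest) were 4.81, 22.1 and 28.8 CPM in sham, 0.687, 1.45 and 8.54 CPM in MI, and 0.0786, 1.09 and 17.8 CPM in MI+Cell Sheet hearts. The border zone had 4.86, 21.3 and 28.4 CPM, 0.458, 4.45 and 7.31 CPM, and 0.379, 8.11 and 18.0 CPM. The remote zone had 10.8, 31.2 and 34.7 CPM, 5.79, 11.8 and 17.3 CPM, and 8.15, 31.2 and 36.5 CPM. In the remote zone the median of MI+Cell Sheet hearts was that of the shams, and MI hearts were lower.

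The fall after MI was -2.69 ± 0.66 (adjusted p = 0.00622) in the infarct zone, -2.36 ± 0.60 (adjusted p = 0.0101) in the border zone and -1.27 ± 0.28 (adjusted p = 0.00692) in the remote zone, and it was larger in the infarct than in the remote zone by a log2 difference of -1.72 ± 0.50 (adjusted p = 0.0205). The cardiomyocyte markers fell in the same libraries, with the values given for Bdnf. The difference of MI+Cell Sheet from MI hearts was 0.48 for the infarct zone, 1.10 ± 0.73 for the border zone and 1.23 ± 0.32 for the remote zone. The infarct value ranged from -0.90 without MI+Cell Sheet replicate 6, the library with the high cardiomyocyte sum, to 1.13. The cardiomyocyte sum of the remote zone was 11053 to 21442 CPM in MI and 11556 to 39511 CPM in MI+Cell Sheet hearts. Its part in the Cdnf difference was not tested.

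**Figure D4:**
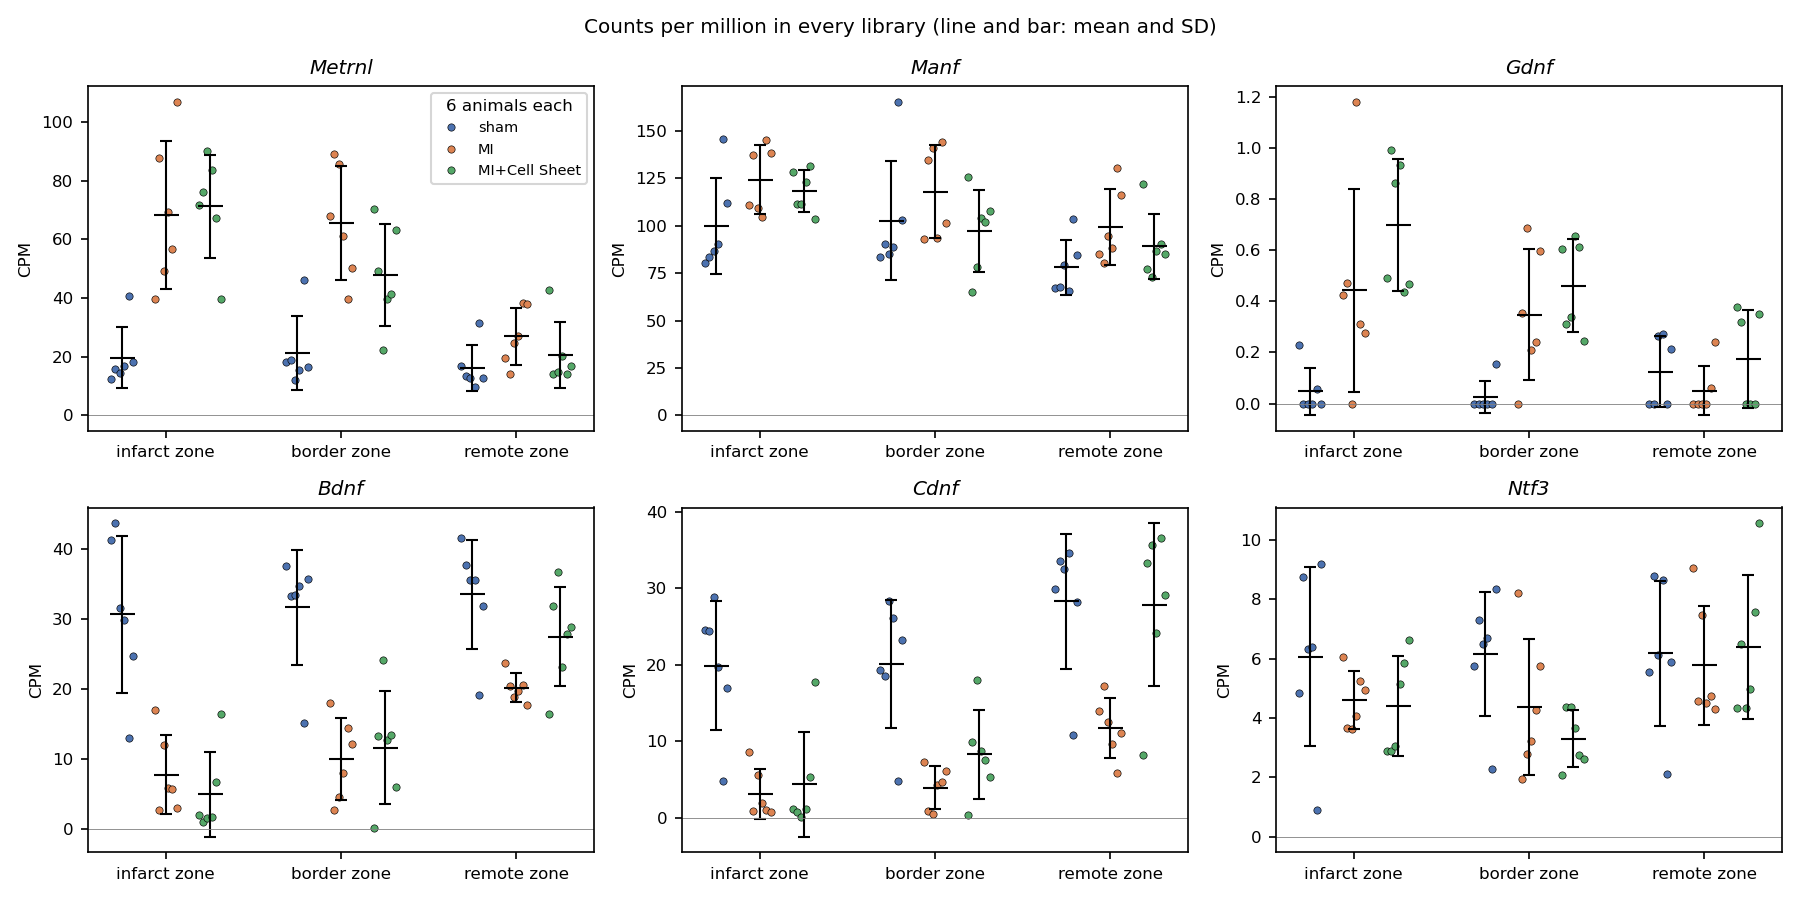
Levels of Metrnl, Bdnf, Ntf3, Gdnf, Manf and Cdnf in CPM (vertical axes) in each library, by zone and treatment group, with group means and SDs. Metrnl was higher and Bdnf and Cdnf lower in MI than in most sham libraries of the infarct and border zones, and 1 sham animal lay on the MI side for Metrnl in every zone (40.7, 46.2 and 31.3 CPM).

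Comparing MI+Cell Sheet with sham hearts asked how far treated hearts stayed from uninjured ones, with the same sham libraries as the contrast of MI with sham. Among the 6 genes other than Ndnf and Metrn, of which Gdnf was too low for the fit, Metrnl rose and Bdnf fell in the infarct zone, and Metrnl rose and Ntf3 fell in the border zone. These were 2 of 5 in each, where 57.9% and 43.6% of all genes were called. Without sham replicate 5 they were 5 and 4 of 5. The share of all genes in those fits is not given here. The ER stress genes that rose and fell there went from 14 and 4 to 17 and 4 (infarct zone) and from 7 and 4 to 14 and 4 (border zone). In the infarct zone Cdnf was at -2.22 ± 0.93 (adjusted p = 0.0574), and passed without sham replicate 5 (adjusted p = 0.0294) or MI+Cell Sheet replicate 6 (-3.60). In the remote zone 0 of 5 were called by edgeR, where 0.0066% of all genes were, and 0 by DESeq2. At an unadjusted p under 0.05 there were 0 of 5, where 1520 of all 15157 genes tested were.

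Zones were compared within animals, with the animal as a block. In sham hearts Metrn and Manf were higher and Cdnf lower in the infarct than in the remote zone (3 of 6 genes fitted, 32.4% of all genes), and Metrnl joined them between the border and remote zones (4 of 6, 25.7% of all genes). The sham value of Cdnf was -0.56 ± 0.11 (adjusted p = 0.00137), lower in the infarct zone in all 6 animals, and that of Metrnl in the border zone 0.37 (adjusted p = 0.0187), which was lost without sham replicate 4 or 5. Between infarct and remote zones Metrnl passed only without sham replicate 1, of the animals left out in turn. Cell markers differed between the same sham zones. Of 5 cardiomyocyte markers 4 were lower and 1 higher than in the remote zone, with medians of -0.66 (infarct) and -0.71 (border), while 4 and 2 of 5 macrophage markers and 3 and 2 of 5 fibroblast markers were higher. Their part in the differences of these genes was not tested.

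In MI hearts 6 of 7 genes differed between infarct and remote zones, where 36.4% of all genes did. Ndnf and Metrn were among them, and these MI libraries also entered the contrast that chose both. Metrnl was higher by 1.34 ± 0.24 (adjusted p = 0.00923), and Bdnf and Cdnf were lower by log2 differences of -1.67 ± 0.33 (adjusted p = 0.0101) and -2.40 ± 0.50 (adjusted p = 0.011), each in 6 of 6 animals. The Manf value of 0.34 (adjusted p = 0.0335) was lost when any 1 animal was left out, and 3 to 5 genes were called in those fits. Between border and remote zones of MI hearts 0 of 7 were called by edgeR, where 0% of all genes were. At an unadjusted p under 0.05 there were 3 of 7, where 5943 of all 15738 genes tested were. DESeq2 called 3 of 7, and its share of all genes is not given here. In MI+Cell Sheet hearts all 5 tested genes differed between infarct and remote zones (62.8% of all genes), led by Cdnf (-3.78 ± 0.91, adjusted p = 0.00971) and Bdnf (-3.18 ± 0.61, adjusted p = 0.00446), and 3 of 5 between border and remote zones (56.4%). Of these calls, that of Ntf3 was lost without MI+Cell Sheet replicate 1, 2, 5 or 6 in both zones and also without replicate 3 in the infarct zone, while Bdnf passed in the border zone without replicate 1.

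The difference of the MI effect between infarct and remote zones was called for 4 of 7 genes (Ndnf, Metrnl, Bdnf and Cdnf), where 28.9% of all genes were called, and for 0 of 7 without the animal as a block. Of the genes called, Ndnf was chosen on a contrast that shares these MI libraries. For the border against the remote zone the difference was called for 0 of 7 by edgeR (0% of all genes), and for 2 (Metrnl and Bdnf) without MI replicate 5. At an unadjusted p under 0.05 there were 2 of 7, where 3995 of all 16475 genes tested were. DESeq2 called 1 of 7, and its share of all genes is not given here.

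**Figure D5:**
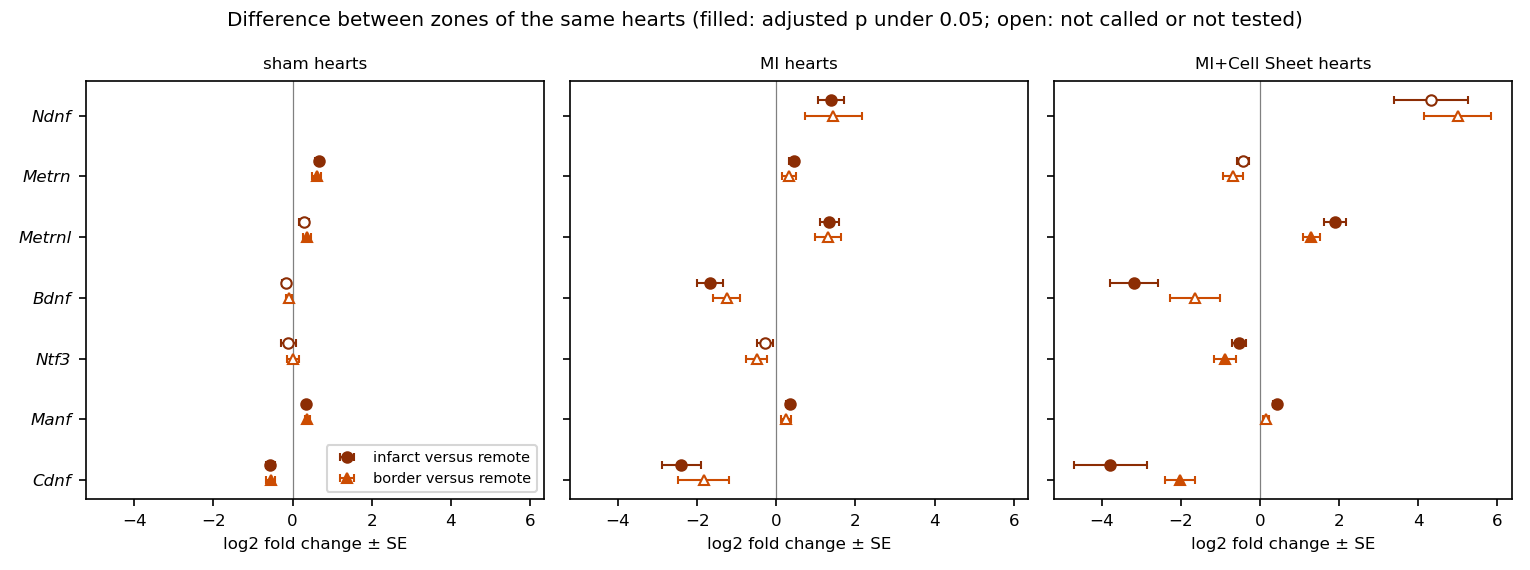
Log2 fold changes with standard errors (horizontal axis) of the neurotrophic factor genes in the infarct and border zones against the remote zone of the same animals, for sham, MI and MI+Cell Sheet hearts. Metrn lay above 0 in sham hearts (0.68 and 0.61) and below 0 in MI+Cell Sheet hearts (-0.43 and -0.68), and Ndnf reached 4.32 and 5.00 in MI+Cell Sheet hearts.

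Other ligands of these families were taken from a list of 16 genes. Of all genes, 49.9% were called after MI in the infarct zone. There 8 of the 14 ligands that could be fitted rose and 2 fell, with a median log2 fold change of 1.11. They included Ptn (pleiotrophin, 2.57 ± 0.43), Ntf4 (neurotrophin-4, 2.20) and Nrg1 (neuregulin-1, 1.98) among those that rose, and Nrtn (neurturin, -1.23) and Nenf (neudesin, -0.48), the 2 that fell. In the border zone, where 41.7% of all genes were called, 6 rose and 0 fell, led by Ptn (2.59), Mdk (midkine, 1.70) and Nrg1 (1.67). In the remote zone, where 25.8% of all genes were called, 4 of 12 rose and 0 fell. Ptn (1.66) and Lif (leukemia inhibitory factor, 1.33) were among those that rose. Most of the ligands that changed after MI therefore rose, unlike Bdnf.

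With the cell sheet 0 of the 14 ligands fitted rose and 3 fell in the border zone relative to MI hearts, a share near the 18% of all genes called there. One of them was Nenf (-0.82), which had a mean level of 82.7 ± 10.1 CPM in MI and 46.4 ± 8.36 CPM in MI+Cell Sheet hearts. With the zones summed 2 of 15 ligands fell, Nenf (-0.56) among them, where 12.1% of all genes were called. In the infarct and remote zones 0 of 15 and 0 of 14 ligands were called, where 0% and 17.1% of all genes were. Against sham hearts 9 ligands rose and 2 fell in infarct tissue, 6 and 3 did so in border tissue, and 0 and 0 in remote tissue. Of all genes 57.9%, 43.6% and 0.0066% were called in these comparisons.

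The receptors and other binding partners were a list of 22 genes. After MI 49.9% of all genes were called in the infarct zone. There 8 of the 20 receptors that could be fitted rose and 3 fell, with a median of 0.16. Those that rose most were Ncam1 (neural cell adhesion molecule, a Gdnf receptor, 2.51), Sorcs2 (a sortilin-family receptor for proneurotrophins, 1.92) and Kdelr3 (a receptor that retrieves ER proteins, 1.51). Ret, the signaling kinase for Gdnf, fell by 1.41 on the log2 scale, as did the receptors Lifr (-0.81) and Gfra4 (-0.58). In the border zone 6 rose and 2 fell, and in the remote zone 5 rose and 1 fell, where 41.7% and 25.8% of all genes were called. Ncam1, Sorcs2 and Kdelr3 again led in the border zone at 2.23, 1.91 and 1.59, while Ret (-1.12) and Lifr (-0.91) fell there.

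Relative to MI hearts, 2 of the 20 receptors fitted rose and 1 fell in the border zone of MI+Cell Sheet hearts, a share no higher than the 18% of all genes called there. Sort1 (sortilin, which binds proneurotrophins and sorts Bdnf) rose by 0.78, from 50.7 to 63.8 CPM in the MI libraries to 86.6 to 110 CPM in the MI+Cell Sheet libraries. Kit, described as a receptor of meteorin-like, rose by 0.71, from a mean of 24.4 ± 2.90 CPM to 39.3 ± 5.00 CPM, and Kdelr3 fell by 0.56. With the zones summed 4 of 21 rose and 0 fell (12.1% of all genes were called), including Il6st (a shared cytokine receptor subunit, 0.55), Kit (0.55) and Sort1 (0.47). Mural cell markers rose in the border zone too, 4 of 5, and their part in these changes was not tested.

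Genes of the ER stress response, to which Manf and Cdnf belong by function, were a list of 26. After MI 13 rose and 3 fell in the infarct zone (median 0.36), with Edem1 (0.93), Pdia4 (0.88) and Pdia6 (0.75), which act in the folding and disposal of ER proteins, leading the rises. Ddit3 (-0.91), a stress-induced transcription factor, Herpud1 (-0.76) and Dnajb9 (-0.59) fell. In the border zone 7 rose and 2 fell, and in the remote zone 2 rose and 4 fell. Of all genes 49.9%, 41.7% and 25.8% were called after MI in the infarct, border and remote zones. In MI+Cell Sheet against MI hearts 2 of 26 rose and 3 fell in the border zone, again near the 18% of all genes, namely Hyou1 (0.40) and Ern1 (0.39) against Trib3 (-0.73), Selenos (-0.58) and Atf4 (-0.56). Members of the list thus moved in both directions in each of these comparisons.

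Counts for the lists changed with single animals, and the share of all genes in the fits without sham replicate 5 is not given here. Without sham replicate 5 the ligands, receptors and ER genes that rose and fell after MI were 9 and 3, 8 and 5, and 18 and 3 in the infarct zone, 7 and 1, 6 and 4, and 17 and 3 in the border zone, and 4 and 0, 6 and 2, and 13 and 5 in the remote zone. In the remote zone of MI+Cell Sheet against MI hearts 4 list genes were called, namely Sort1 (0.47), Hyou1 (0.52) and Ern1 (0.47), which rose, and Pdia3 (-0.54), which fell. Without MI+Cell Sheet replicate 1 there were 24. In the infarct zone of that comparison 0 list genes were called by edgeR, where 0% of all genes were.

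The genes whose levels were ordered most like each neurotrophic factor gene over the 54 libraries, by Spearman's rho among about 13300 genes, are given as a description, since libraries of the same 18 animals and zones share cell composition. For Ndnf they were Arnt2 (0.929), C2 (0.905), Srgap2 (0.898), Npnt (0.890) and Tspan5 (0.887). For Metrn they were Arl4a (0.792), Gng11 (0.784), Hsd11b1 (0.758), S100a16 (0.755) and Tcf21 (0.755). Metrn thus had no gene as close to it as Ndnf did.

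Among the genes most like Metrnl were those of the lysosomal enzymes Ctsa (0.972) and Gusb (0.968). Bdnf was most like Socs6 (0.970), Idh2 (0.962) and Tnnt2 (0.962), and Cdnf like Camk2a (0.987), Tnni3k (0.986) and Ldb3 (0.986). Tnnt2, Tnni3k and Ldb3 are genes of cardiac muscle. Manf was most like Eif4a1 (0.876), Creld2 (0.873) and Dnajb11 (0.863), of which Creld2 and Dnajb11 are ER proteins, and Ntf3 like Pde4c, Ube2e3 (both 0.827) and Gli4 (0.823).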

How the data were processed

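Poly(A) RNA of 54 left ventricular samples was sequenced. Per the study's methods, the authors aligned paired-end reads with STAR to the rat genome (mRatBN7.2) and deposited raw counts per gene and library. The program that counted and its strand setting are not given in the sources used here, so overlapping and antisense genes cannot be told apart. Human transcripts of the sheet were not analysed here. Reads of the sheet that aligned to rat genes, if any, cannot be told apart from rat reads in these counts. The 5 summary lines of each file (17.0 to 42.8% of counts) were left out.

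Counts on genes were tested with edgeR 4.0.16 (R 4.3.3; TMM factors, filterByExpr, quasi-likelihood test, Benjamini-Hochberg adjustment over all genes fitted, threshold 0.05), with only the groups compared in each fit. Zones were compared with the animal as a block, since they came from the same hearts. Deviations from the group mean of the infarct and remote zones of 1 animal correlated at 0.20 to 0.90 in sham, -0.21 to 0.36 in MI and -0.18 to 0.41 in MI+Cell Sheet hearts. Gdnf, below the filter in MI against sham, was tested by exact permutation. Log2 fold changes are given ± SE and levels as mean ± SD (n = 6) or lowest, median and highest. The test was checked on simulated counts. No libraries agreed within sampling noise.

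The genes and gene lists were chosen with earlier results of these data known, so no p-value was adjusted over a list alone. Differences between MI+Cell Sheet and MI hearts for the 8 genes, and all values with MI+Cell Sheet hearts for Ndnf and Metrn, carry no test. In each list the up to 3 largest rises and falls that passed were named, and for likeness the 5 (Ndnf, Metrn) or 3 genes of highest rho with a mean log2 CPM of at least 1. A few genes that this rule would name are not reported here. Alternatives were DESeq2 1.42.0, no filter, library size without TMM, a minimum of 10 counts in each library, the replicate block, all 3 treatments in 1 fit and leaving out each library.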

Additional observations from a re-analysis of the deposited data

Results flagged for a closer look

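A value was singled out where the highest or lowest of the 6 libraries of a group lay far from the nearest other one by Dixon's test. This held in 18 of the 72 groups tested, where chance would mark about 1 in 20. Of these, 9 belonged to sham replicate 5. Its Ndnf level was 8.12 CPM in the infarct, 8.72 CPM in the border and 7.48 CPM in the remote zone, against a next highest sham of 0.619, 0.863 and 1.13 CPM. Its Metrnl level was 40.7, 46.2 and 31.3 CPM in those zones. Its Bdnf level was low in the border zone (15.1 CPM), as was its Cdnf level in the remote zone (10.8 CPM), and its Manf level was high in the border zone (166 CPM).

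Among MI+Cell Sheet hearts, replicate 1 was high for Ndnf in the infarct zone (27.0 CPM) and for Metrnl (42.8 CPM) and Manf (122 CPM) in the remote zone, replicate 4 was high for Ndnf in the remote zone (5.16 CPM), and replicate 6 was high for Bdnf (16.5 CPM) and Cdnf (17.8 CPM) in the infarct zone. Gdnf stood out in sham replicate 1 in the infarct zone (0.231 CPM), sham replicate 6 in the border zone (0.156 CPM) and MI replicate 6 in the remote zone (0.239 CPM), where the other libraries were at or near 0.

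The effect of MI differed between the infarct and remote zones for 4 genes by edgeR's interaction test. The log2 difference was 2.16 for Ndnf (adjusted p = 0.0153), 1.06 for Metrnl (adjusted p = 0.0163), -1.46 for Bdnf (adjusted p = 0.00897) and -1.72 for Cdnf (adjusted p = 0.0205). The contrast that chose Ndnf shares these MI libraries.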

How the results depend on the processing

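Replicate numbers did not pair animals across treatments: for the same number, deviations from the group mean correlated at -0.63 to 0.51, with at most 2 of 6 pairs over 0.1 in any comparison. With the replicate block, the list genes called between MI+Cell Sheet and MI hearts went from 11 to 6 in the border zone, from 4 to 0 in the remote zone and from 8 to 4 with the zones summed, and the neurotrophic factor genes called for MI against sham in the remote zone from 2 to 4. Without the animal as a block (no replicate block), the genes called went from 3 to 1 and from 4 to 0 in sham hearts for the infarct and border against the remote zone, from 0 to 3 for the border zone of MI hearts and from 4 to 0 for the difference of the MI effect between infarct and remote zones.

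With DESeq2 the list genes called between MI+Cell Sheet and MI hearts were 8 in the remote zone and 13 summed, and the neurotrophic factor genes called were 4 for MI+Cell Sheet against sham in the infarct zone, 3 for the border against the remote zone of MI hearts and 1 for the difference of the MI effect between border and remote zones. Library size without TMM, which moved the median of all genes by up to 0.28 (log2), gave 5 and 4 for MI against sham in the infarct and remote zones and 1 for MI+Cell Sheet against sham in the border zone. With all 3 treatments in 1 fit, 5 were called for MI and 4 for MI+Cell Sheet against sham in the infarct zone.

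Leaving out each library gave 3 to 6, 3 to 5 and 2 to 5 genes for MI against sham in the infarct, border and remote zones, 2 to 5 and 1 to 4 for MI+Cell Sheet against sham in the infarct and border zones, 3 to 5 for the infarct against the remote zone of MI hearts, 2 to 3 for the border against the remote zone of MI+Cell Sheet hearts, and 0 to 2 for the difference of the MI effect between border and remote zones. For the list genes it gave 8 to 13 in the border zone and 2 to 24 in the remote zone of MI+Cell Sheet against MI hearts. The share of all genes called in each alternative fit of this section is not given beside these counts. The counts therefore do not show a change particular to the neurotrophic factor genes or the list genes.

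Signs turned in values that did not pass the test. For MI against sham in the remote zone Ndnf was 0.082 with the replicate block and Ntf3 0.048 without TMM. For MI+Cell Sheet against sham, Manf was 0.17 in the border zone and Cdnf 0.00089 in the remote zone without TMM. The difference of the MI effect between infarct and remote zones was -0.012 for Manf with DESeq2 and -0.020 with no replicate block. Leaving out a library gave -1.05 to 0.72 for Ndnf and -0.28 to 0.030 for Ntf3 in MI against sham in the remote zone, -0.17 to 0.089 for Manf in the border zone and -0.052 to 0.65, -0.17 to 0.16 and -0.21 to 0.14 for Metrnl, Ntf3 and Cdnf in the remote zone of MI+Cell Sheet against sham, -0.30 to 0.024 and -0.085 to 0.038 for Ntf3 and Manf in the difference of the MI effect between infarct and remote zones, and -0.27 to 0.026 and -0.089 to 0.098 for Ntf3 in the infarct and border against the remote zone of sham hearts.

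The described differences of Ndnf and Metrn between MI+Cell Sheet and MI hearts kept their sign in the infarct and border zones in these alternatives. Over all genes, the number called between MI+Cell Sheet and MI hearts was 2623 in the remote zone, 2 with the replicate block and 6450 without MI+Cell Sheet replicate 1. The cause of these changes was not tested, apart from fits with fewer libraries. Few counts limit the precision for Gdnf and, in sham hearts and remote zones, for Ndnf.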
